A study of Mus musculus with 28 samples.

Results

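Piericidin, an inhibitor of mitochondrial complex I, was compared with no treatment in mouse regulatory T (Treg) cells kept in vitro. The comparison uses 6 of the 28 RNA-seq libraries of the series: 3 of the group labelled Piericidin (1 µM) and 3 of the group labelled Untreated. All genes that passed a filter on low counts were tested, 11689 of the 43430 gene IDs in the count table, of which 20227 had a count in at least 1 of the 6 libraries. The cells of both groups are labelled CD4+ YFP-Foxp3+ CD25+, from 3-week-old C57BL/6NJ mice of genotype RISP WT, so no group here carries the knockout that other samples of the series carry. The same culture experiment holds 3 libraries with 500 µM 3-NPA (an inhibitor of complex II) and 3 with 1 µM antimycin A (an inhibitor of complex III), of the same strain, age and genotype. They are used here only where they were set directly against piericidin. The labels give neither the time in culture nor whether replicates are separate mice or separate wells, so the p-values reflect only how far these libraries vary, and that variation may be technical.

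Complex I (NADH:ubiquinone oxidoreductase) takes electrons from NADH and passes them to ubiquinone while it pumps protons across the inner mitochondrial membrane. Piericidin occupies the ubiquinone site and so stops the oxidation of NADH by the chain, while electrons can still enter through complex II. Treg cells are CD4+ T cells that express the transcription factor Foxp3 and restrain other immune cells. They are known for relying on mitochondrial respiration more than conventional effector T cells do.

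The 6 libraries held 2738238 to 3424327 counts, and the 50 most abundant genes took 10.4 to 12.0% of them. Replicate 1 of piericidin stood apart from replicates 2 and 3 on the second principal component of the 12 in vitro libraries (38.9 against 10.2 and 6.04, with 12.6% of the variance), and counts that differ by over 1.5 times without it, or without another library, are given beside the result. The CD4 T cell identity of the cells was checked on 2 marker lists. All 8 T cell markers and all 7 Treg cell markers were detected in all 6 libraries at a summed level of 3347 to 3648 and 6913 to 7163 CPM (read counts scaled to a common library size, with TMM factors). Markers of other cell types were low: of 10 B cell markers 3 were at 0 counts in all 6 libraries, among them Ms4a1 and Pax5. The 3 that were tested all had a negative log2 fold change with piericidin, from -1.40 to -0.76, and 1 was called lower. The summed B cell list was 490.3 to 548.6 CPM untreated and 274.8 to 291.2 CPM with piericidin. Nearly all of that was Ighm, the immunoglobulin mu heavy chain, which fell by 0.88 on the log2 scale (adjusted p = 1.76e-07). Ighm RNA is also known in T cells, and its source here was not tested. Neutrophil, erythroid, macrophage, dendritic and natural killer cell lists summed to at most 0.915, 4.35, 21.3, 23.2 and 27.8 CPM in the 6 libraries. The plasma cell list (217 to 263 CPM, nearly all Xbp1 and Prdm1, with Jchain and Mzb1 at 0) and the stromal list (55.2 to 104 CPM, mostly Pecam1, with Col3a1 and Dcn at 0) had no called member.

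Piericidin changed 1584 of the 11689 tested genes (13.6%) at an adjusted p under 0.05, of which 657 were higher (5.62%) and 927 lower (7.93%). Adjusted p values are by Benjamini-Hochberg over all tested genes, from edgeR's quasi-likelihood test fitted to the 12 in vitro libraries. The median log2 fold change of all tested genes was 0.01, so the changes below are relative to a centre near 0. Changes of 2-fold or more were seen in 85 called genes that rose and 192 that fell. Without regard to the test, the CPM of the 2 groups did not overlap for 1777 genes that were lower (15.2%) and 1596 that were higher (13.7%). Leaving out untreated replicate 1 or piericidin replicate 3 reduced the called genes to 1027 and 1009. The rises dropped to 380, 408 and 396 without untreated replicate 1, untreated replicate 3 and piericidin replicate 3, and the falls to 613 without piericidin replicate 3. Only 82 genes, 9 higher and 73 lower, passed a test against a minimum change of 1.5-fold.

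**Figure D1:**
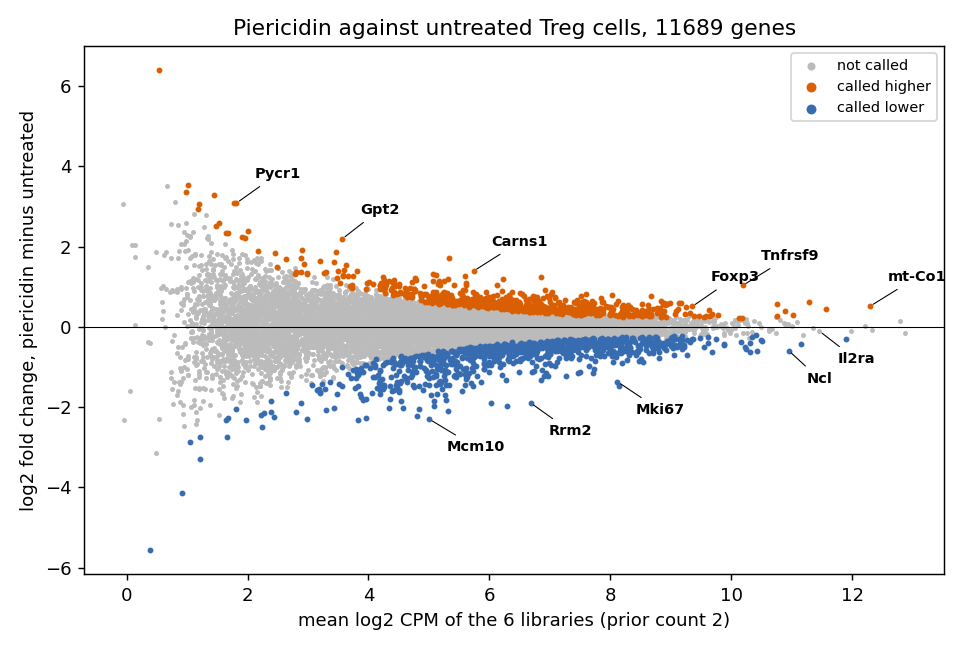
Log2 fold change of piericidin against untreated cells (vertical axis) by mean log2 CPM of the 6 libraries (horizontal axis) for the 11689 tested genes, each a point. Genes called higher (657) and lower (927) are coloured, and labelled falls such as Mcm10, Rrm2 and Mki67 lie farther from 0 than labelled genes of higher level such as Ncl and Il2ra.

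The clearest change was a fall of the genes of cell division. All 25 tested genes of the mitosis list fell, with a median log2 fold change of -1.46, and 24 of the 26 DNA replication genes fell, with a median of -0.96, against 7.93% lower among all tested genes. In these bulk samples a smaller share of dividing cells and less of these RNAs per cell cannot be told apart. Mki67, which encodes the Ki-67 protein of cycling cells, was at 409, 533 and 403 CPM in untreated replicates 1 to 3 and at 194, 182 and 147 CPM with piericidin. Every piericidin library was below every untreated one, with a log2 fold change of -1.37 ± 0.15 (SE, adjusted p = 4.73e-08). Ccna2, cyclin A2 of S and G2 phase, went from 171, 146 and 144 CPM to 47.5, 32.96 and 37.2 CPM, a log2 fold change of -1.97 ± 0.21 (SE, adjusted p = 2.09e-08). Cdk1, the kinase that drives entry into mitosis, went from 83.8, 93.98 and 70.9 CPM to 17.7, 27.5 and 13.1 CPM, with -2.10 ± 0.27 (SE, adjusted p = 6.77e-07). In both genes the groups were far apart and piericidin replicates differed among themselves by less than the distance to the untreated ones.

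Regulators of mitotic exit fell by similar amounts. Cdc20 and Ube2c, an activator and an E2 enzyme of the anaphase-promoting complex, fell by 2.04 and 2.23 on the log2 scale (adjusted p = 1.92e-05 and 1.86e-06). Plk1, a mitotic kinase, was at 41.1, 36.6 and 45.1 CPM untreated and 13.2, 13.04 and 4.27 CPM with piericidin, where replicate 3 was the lowest. Top2a, the topoisomerase that untangles sister chromatids, Cenpf of the kinetochore and Kif23 of the midbody had log2 fold changes of -1.46, -1.86 and -1.84 (adjusted p = 7.21e-08, 7.85e-05 and 6.82e-05). Without 1 of the 6 libraries, 20 to 25 of the 25 mitosis genes were still called lower.

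Among the replication genes, Mcm10, which helps to activate the replicative helicase, had the largest fall of the 12 shown in the plot of falls and rises. It was at 64.7, 88.7 and 55.7 CPM in the untreated libraries and at 15.1, 14.1 and 13.4 CPM with piericidin, a log2 fold change of -2.30 ± 0.23 (SE, adjusted p = 8.38e-09). Ccne1, cyclin E1 of the G1 to S transition, went from 46.6, 39.8 and 55.4 CPM to 8.46, 14.9 and 11.3 CPM (log2 fold change -2.03, adjusted p = 1.07e-06). Clspn, an adaptor of the replication checkpoint, and Pclaf, a PCNA-binding factor, had log2 fold changes of -1.97 and -1.89 (adjusted p = 1.76e-06 and 9.37e-08). Smaller falls were measured for abundant parts of the fork. Mcm7 and Mcm6 of the helicase had log2 fold changes of -1.06 and -0.62 (adjusted p = 5.56e-07 and 3.81e-06), Lig1, the ligase that seals Okazaki fragments, of -1.16 (adjusted p = 1.02e-08), and Uhrf1, which guides maintenance DNA methylation, of -1.22 (adjusted p = 6.12e-07). Without 1 of the 6 libraries, 21 to 26 replication genes were called lower.

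**Figure D2:**
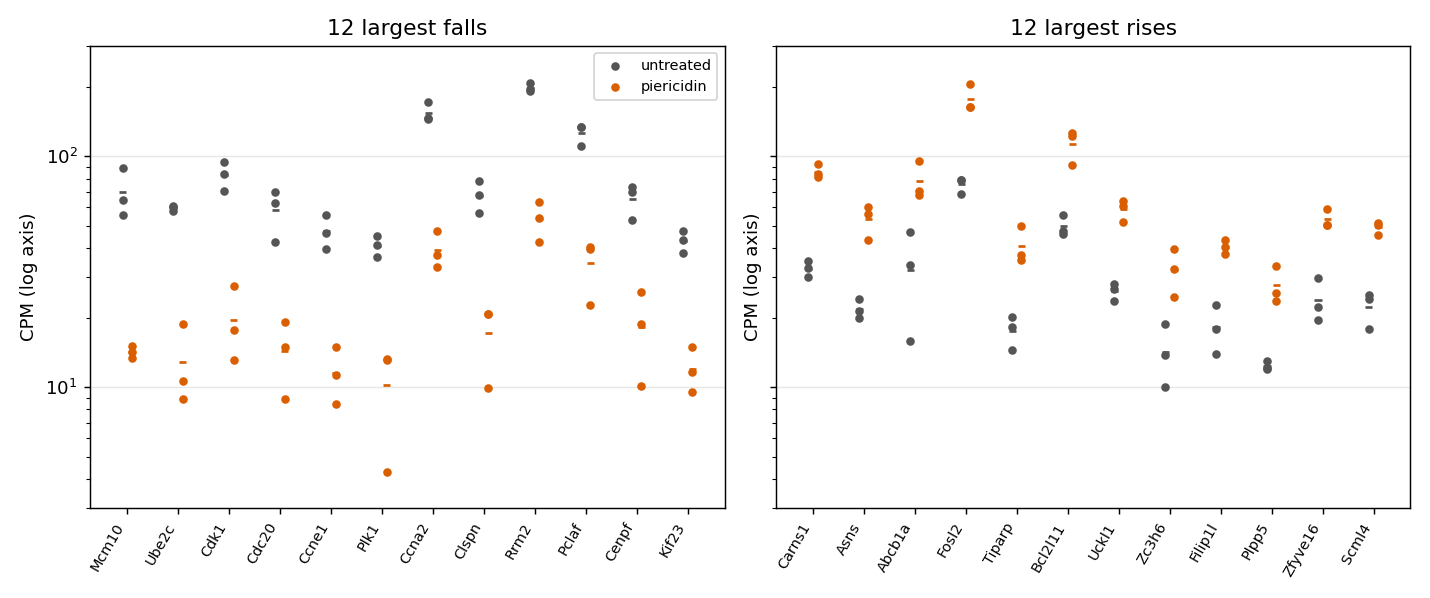
CPM on a log axis of the 12 largest falls (left) and 12 largest rises (right) that passed the test, reached 4 in mean log2 CPM and had no shared range between the groups, with each library as a point and the group mean as a dash. The 12 falls are genes of replication and division, and the rises are smaller in fold, from 1.14 to 1.39 on the log2 scale.

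The start regions of some members show what many of these genes share in sequence. The stretches below are from RefSeq promoter windows (GRCm38.p6, 250 bases before to 50 after each start site), shown because they carry short motifs known from cell cycle genes, with matches on either strand in capitals. The CHR element, TTTGAA, is known from promoters of late cell cycle genes and is bound by the MuvB core of the DREAM complex. It occurs in 17 of the 22 windows found for 21 of the 25 mitosis genes (77.3%), against 17.9% of all 32851 windows. Cdk1 (chr10:69352913-69353062, minus strand) has 2 matches, starting 71 and 15 bases before the start site, Cdc20 (chr4:118437344-118437493, minus strand) has 1 at 18 bases, and Ube2c (chr2:164769779-164769928, plus strand) has 1 at 29 bases.
Cdk1: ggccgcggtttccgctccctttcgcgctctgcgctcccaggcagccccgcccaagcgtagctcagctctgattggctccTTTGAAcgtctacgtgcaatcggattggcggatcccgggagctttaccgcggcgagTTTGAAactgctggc
Cdc20: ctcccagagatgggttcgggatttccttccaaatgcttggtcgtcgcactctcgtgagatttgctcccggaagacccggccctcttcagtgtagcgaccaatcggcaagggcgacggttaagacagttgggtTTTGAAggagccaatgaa
Ube2c: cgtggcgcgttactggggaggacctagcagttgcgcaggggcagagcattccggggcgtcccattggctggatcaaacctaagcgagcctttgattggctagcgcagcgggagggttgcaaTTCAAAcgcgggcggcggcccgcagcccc
A form of the E2F site, TTTNGCGC, where N is any base, occurs in 9 of the 25 windows found for 20 of the 26 replication genes (36.0%), against 1.38% of all windows. Mcm6 (chr1:128359706-128359855, minus strand) has 3 matches starting 110, 106 and 47 bases before the start site, of which the first 2 overlap on opposite strands.
Mcm6: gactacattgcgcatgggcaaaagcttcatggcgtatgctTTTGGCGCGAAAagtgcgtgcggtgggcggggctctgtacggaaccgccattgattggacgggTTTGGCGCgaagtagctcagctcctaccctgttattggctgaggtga
A match is a description of the letters, and no binding was measured in these samples. The motifs split between the lists: 3 of the 25 replication windows (12.0%) hold the CHR letters, and 1 of the 22 mitosis windows (4.55%), that of Cdk1, holds the E2F form (left in lower case above). No match to one of these motifs overlaps a match to the other in the stretches shown.

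Many genes that supply nucleotides also fell. Of 12 tested pyrimidine and deoxynucleotide synthesis genes, 8 fell and 0 rose (median -0.59), and of 14 purine synthesis genes 9 fell and 0 rose (median -0.47). The shares of all tested genes were 7.93% lower and 5.62% higher. Rrm2, the regulated subunit of ribonucleotide reductase, was at 191, 206 and 195 CPM untreated and 54.1, 63.4 and 42.4 CPM with piericidin (log2 fold change -1.89 ± 0.18 SE, adjusted p = 5.78e-09). Its partner Rrm1 went from 336, 316 and 293 CPM to 163, 146 and 116 CPM (log2 fold change -1.16, adjusted p = 1.57e-07). Cad, which carries out the first steps of pyrimidine synthesis, and Tyms, thymidylate synthase, had log2 fold changes of -0.62 and -1.22 (adjusted p = 3.39e-05 and 4.18e-05). In the purine list Paics, Adsl, Atic and Gart, enzymes along the route to inosine monophosphate and adenylate, had log2 fold changes of -0.66, -0.59, -0.50 and -0.52 (adjusted p = 2.51e-05, 5.41e-04, 8.17e-04 and 0.00111). No group overlapped with the other in any of these 8 genes.

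Most mRNAs of ribosome biogenesis factors fell by smaller amounts. Of 28 tested genes 22 fell and 0 rose, and all 28 had a negative log2 fold change, from -0.71 to -0.10 (median -0.48). That stands beside 7.93% lower among all tested genes. Myc, a transcription factor that drives growth genes, was at 358, 327 and 372 CPM untreated and 249, 189 and 233 CPM with piericidin (log2 fold change -0.65 ± 0.10 SE, adjusted p = 1.57e-05). Ncl, the nucleolar protein nucleolin, was at 2512, 2366 and 2423 CPM and 1819, 1522 and 1503 CPM, with -0.59 ± 0.08 (SE, adjusted p = 1.07e-06). Npm1 and Nolc1, also of the nucleolus, had log2 fold changes of -0.56 and -0.71 (adjusted p = 1.86e-06 and 1.59e-06). The count was 17 to 20 of 28 without 1 library, and 0 of the 28 passed the test against a 1.5-fold minimum.

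Some folding factors fell too. Of 12 cytosolic chaperones 8 fell (median -0.36), of 14 mitochondrial chaperones and prohibitins 5 fell (median -0.30), and of 18 chaperones of the endoplasmic reticulum 7 fell (median -0.24), with 0 rises in the 3 lists. Over all tested genes 7.93% fell and 5.62% rose. Hsp90aa1, an inducible HSP90, was at 611, 547 and 607 CPM untreated and 415, 314 and 309 CPM with piericidin (log2 fold change -0.77 ± 0.09 SE, adjusted p = 3.92e-07). Hspa8, the constitutive HSC70, had a log2 fold change of -0.62 (adjusted p = 5.56e-07). Hspd1, the mitochondrial HSP60, went from 459, 482 and 505 CPM to 300.2, 277 and 256 CPM (log2 fold change -0.80 ± 0.09 SE, adjusted p = 7.57e-08). Sdf2l1 and Hyou1 of the endoplasmic reticulum had log2 fold changes of -0.96 and -0.41 (adjusted p = 0.00215 and 0.00352). The mitochondrial count was 3 without untreated replicate 1 or piericidin replicate 2 or 3 and 2 without untreated replicate 3, and the endoplasmic reticulum count 4 without untreated replicate 1 or 3 or piericidin replicate 2 and 3 without piericidin replicate 3.

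Few subunits of complex I itself were called. Of 36 nuclear-encoded complex I subunits, 29 had a negative log2 fold change (median -0.14), and 7 were lower without overlap, against 15.2% of all tested genes. DESeq2 called 4 lower. By edgeR 2 fell and 0 rose, a share of falls below the 7.93% of all tested genes. Those 2 were the accessory subunits Ndufb8, from 94.8, 68.5 and 90.5 CPM to 62.9, 46.7 and 49.4 CPM (log2 fold change -0.67 ± 0.17 SE, adjusted p = 0.00442), and Ndufb3, from 68.3, 39.2 and 45.1 CPM to 26.9, 32.6 and 32.6 CPM (log2 fold change -0.72 ± 0.22 SE, adjusted p = 0.0236). Exons of Ndufb8 overlap those of another annotated protein-coding gene on the same strand, so some of its reads may be ambiguous. For Ndufb3 the adjusted p was 0.274, 0.0845 and 0.0550 without untreated replicate 1, piericidin replicate 1 and piericidin replicate 3, and 1 other subunit was called higher without untreated replicate 1. Of 15 complex I assembly factors none was called (median -0.15). The smallest p values there belonged to Ndufaf7 (log2 fold change -0.40, adjusted p = 0.389) and Ecsit (log2 fold change -0.29, adjusted p = 0.410).

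Subunits of the later complexes were counted in the same way. Of 24 tested nuclear-encoded subunits of complexes IV and V, 12 fell, 0 rose and all 24 had a negative fold change (median -0.33), against 7.93% lower among all tested genes. Atp5b, the catalytic beta subunit of ATP synthase, was at 1364, 1203 and 1363 CPM untreated and 1032, 1007 and 997 CPM with piericidin (log2 fold change -0.37 ± 0.07 SE, adjusted p = 5.05e-04). Atp5k, a small membrane subunit, went from 71.5, 55.6 and 52.6 CPM to 31.3, 28.98 and 32.02 CPM (log2 fold change -0.96 ± 0.18 SE, adjusted p = 2.70e-04). Atp5g3 of the c ring and Atp5o of the stalk had log2 fold changes of -0.47 and -0.52 (adjusted p = 0.00100 and 0.00478). The count of 12 became 7 without untreated replicate 1, 6 without untreated replicate 3 and 5 without piericidin replicate 3, and 0 passed the 1.5-fold minimum. Of 13 subunits of complexes II and III, 1 was called lower and 0 higher, a share near the 7.93% of all tested genes. But 11 of the 13 had a negative fold change (median -0.30), and 5 were lower without overlap, against 15.2% of all tested genes. DESeq2 called 4 lower, and a fit with the replicate number as a block called 3. The 1 call of the main fit was Uqcr10 (log2 fold change -0.55, adjusted p = 0.0258). Its adjusted p was 0.162 and 0.206 without untreated replicate 3 and piericidin replicate 3. The number of falls was 4 without untreated replicate 2, 0 without untreated replicate 3 or piericidin replicate 3 and 3 without piericidin replicate 2. The difference between these complexes and complex I was not tested. Uqcrfs1, which encodes the RISP subunit of complex III, was at 51.1, 104 and 64.3 CPM untreated and 43.4, 92.4 and 52.5 CPM with piericidin, groups that overlap (log2 fold change -0.23 ± 0.22 SE, adjusted p = 0.569). Of 40 mitochondrial ribosomal proteins 5 were called lower and 0 higher (median -0.33), against 7.93% lower among all tested genes. In this list 39 of 40 had a negative fold change, and 20 were lower without overlap, against 15.2% of all tested genes. The calls were led by Mrpl28 (log2 fold change -0.78, adjusted p = 0.00359). Their number was 2 without piericidin replicate 2, 3 without piericidin replicate 3 and 9 by DESeq2.

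**Figure D3:**
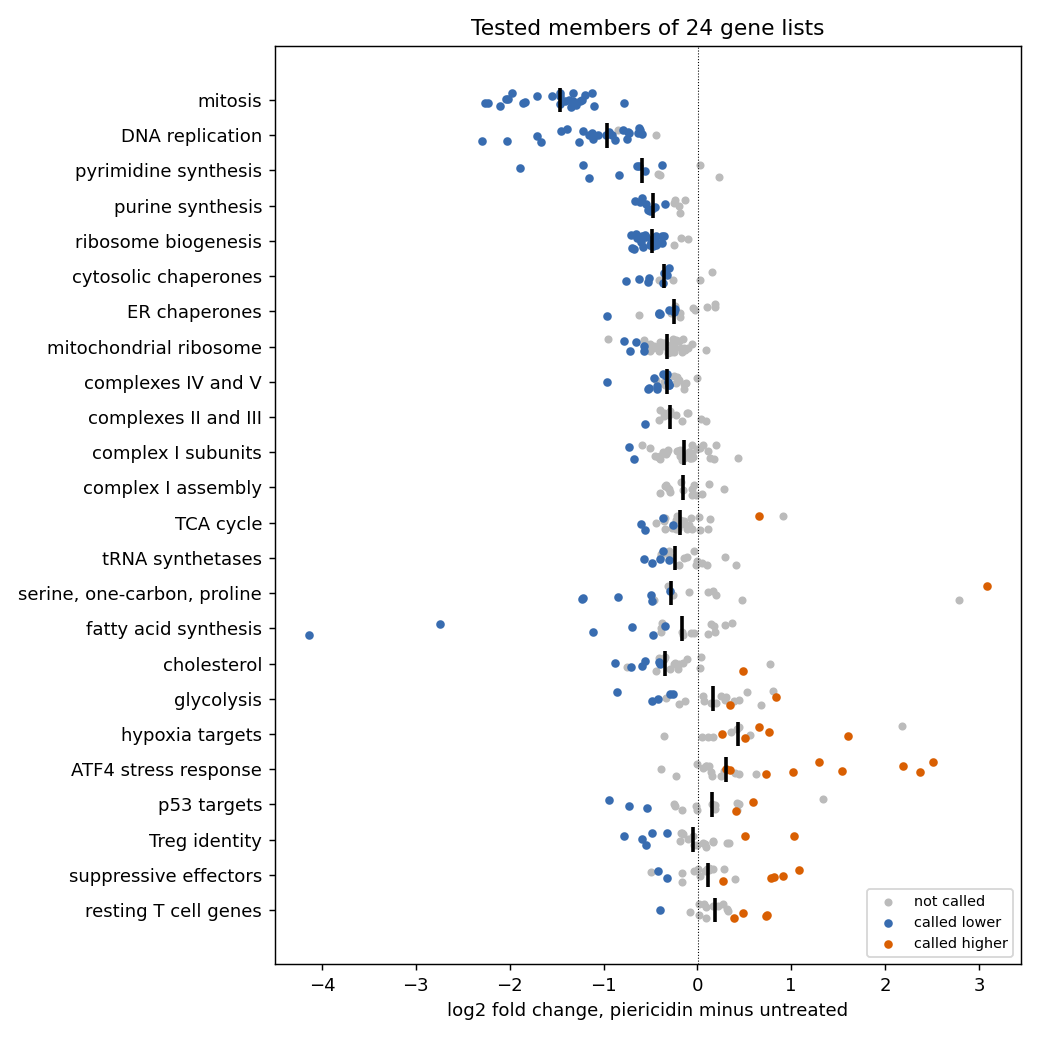
Log2 fold changes of piericidin against untreated cells (horizontal axis) for the tested members of 24 gene lists, each gene a point, coloured where called, with the list median as a black bar and the median of all tested genes as a dotted line. Mitosis and DNA replication lie farthest to the left, while hypoxia targets and the ATF4 stress response have medians of 0.44 and 0.31.

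Against the other inhibitors the number of changed genes was lower. Piericidin differed from antimycin A in 86 tested genes (0.736%), 35 higher (0.299%) and 51 lower (0.436%). It differed from 3-NPA in 502 genes (4.29%), 218 higher (1.87%) and 284 lower (2.43%). These direct comparisons share the piericidin libraries with the comparison above, and the doses differ between compounds. Without 1 library the number against antimycin A was 43, 57 and 55 when piericidin replicate 1, antimycin A replicate 1 or antimycin A replicate 2 was left out. Against 3-NPA it was 302, 231, 230 and 287 without piericidin replicate 2, piericidin replicate 3, 3-NPA replicate 1 and 3-NPA replicate 3.

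Cell division genes also separated piericidin from 3-NPA. Of 25 mitosis genes 11 were lower with piericidin than with 3-NPA (2.43% of all genes) and 0 higher (median -0.96), and of 26 replication genes 7 were lower and 0 higher (median -0.42). Ccna2 was at 118, 81.3 and 81.9 CPM with 3-NPA (log2 difference -1.26 ± 0.21 SE, adjusted p = 2.29e-04), Mki67 at 318, 263 and 292 CPM (log2 difference -0.74 ± 0.15 SE, adjusted p = 0.00225) and Mcm10 at 38.9, 30.5 and 32.7 CPM (log2 difference -1.26 ± 0.23 SE, adjusted p = 7.82e-04), and piericidin libraries lay below all of these. Rrm2 and Myc had log2 differences from 3-NPA of -1.05 ± 0.19 (SE, adjusted p = 4.05e-04) and -0.70 ± 0.10 (SE, adjusted p = 1.76e-05). By DESeq2 the adjusted p of Mki67 against 3-NPA was 0.0900. The mitosis count was 7 without 3-NPA replicate 1, and the replication count 4 without piericidin replicate 2 and 2 without piericidin replicate 3 or 3-NPA replicate 1 or 3. Against antimycin A the mitosis median was 0.52, with 1 gene higher, Mki67, at 125, 140.3 and 60.1 CPM with antimycin A (log2 difference 0.67 ± 0.16 SE, adjusted p = 0.0272), and 0 lower. That adjusted p was 0.158, 0.130 and 0.249 without piericidin replicate 1, piericidin replicate 2 and antimycin A replicate 3, 0.246 by DESeq2 and 0.0613 in a fit of only the 2 groups compared, and the number of higher mitosis genes ranged from 0 to 3 without 1 library (3 without antimycin A replicate 2). Of the replication genes 0 were called either way against antimycin A (median 0.30), and 3 were higher without piericidin replicate 3.

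Many of the largest differences between piericidin and the other inhibitors were in transcripts of mitochondrial DNA. Of 13 mRNAs encoded there, 7 passed the filter. Of the other 6, mt-Nd4l, mt-Co2, mt-Co3, mt-Atp6 and mt-Atp8 are listed at 0 in all 6 libraries and mt-Nd3 in 5 of 6, although some of these are among the most abundant mRNAs of respiring cells, so the list stands for the counted part only. Against untreated cells mt-Co1, a core subunit of complex IV, rose, while mt-Nd2 and mt-Nd4 of complex I and mt-Cytb of complex III fell. With antimycin A and 3-NPA most of these mRNAs were lower than with piericidin. mt-Cytb (chromosome M, 14145 to 15288, mm10) was at 2963, 2501 and 2574 CPM untreated, 2117, 1687 and 2133 CPM with piericidin, 509, 457 and 365 CPM with 3-NPA and 260.1, 397 and 442 CPM with antimycin A. The piericidin libraries lay below the untreated ones and far above those of the other inhibitors, with which there was no overlap. The log2 difference of piericidin was 2.43 ± 0.12 (SE, adjusted p = 7.57e-18) against antimycin A and 2.16 ± 0.12 (SE, adjusted p = 1.04e-16) against 3-NPA, and -0.44 ± 0.11 (SE, adjusted p = 0.00722) against untreated cells.

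All 7 tested mRNAs were higher with piericidin than with antimycin A, with a median of 1.81, and 6 of 7 were higher than with 3-NPA, with a median of 1.69. Of all tested genes 0.299% and 1.87% were higher in these comparisons. mt-Nd4 was at 733, 490.1 and 692 CPM with piericidin against 73.96, 135 and 168 CPM with antimycin A and 243, 171 and 179.8 CPM with 3-NPA. Its log2 difference was 2.35 ± 0.16 (SE, adjusted p = 2.94e-14) and 1.69 ± 0.15 (SE, adjusted p = 1.32e-10). mt-Nd5 and mt-Nd6, also complex I subunits, differed by 2.03 and 1.81 from antimycin A and by 1.76 and 1.89 from 3-NPA. Neither was called against untreated cells (log2 fold change -0.16, adjusted p = 0.319 and -0.14, adjusted p = 0.559). Exons of mt-Nd5 and mt-Nd6 overlap on opposite strands, and without a stated strand setting their reads cannot be told apart. mt-Nd1, the exception against 3-NPA, was at 2532, 1801 and 2182 CPM with piericidin and 1998, 1959 and 1729 CPM with 3-NPA (log2 difference 0.20, adjusted p = 0.302).

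mt-Co1 went the other way from the rest against untreated cells. It was at 4558, 3929 and 4216 CPM untreated and 6428, 5105 and 6605 CPM with piericidin, with no overlap (log2 fold change 0.51 ± 0.10 SE, adjusted p = 2.70e-04). It was at 2675, 2798 and 2406 CPM with 3-NPA and 1906, 2445 and 2982 CPM with antimycin A, which gave 1.31 ± 0.10 (SE, adjusted p = 1.36e-12) against antimycin A and 1.20 ± 0.10 (SE, adjusted p = 1.91e-11) against 3-NPA. The falls of mt-Nd2, mt-Nd4 and mt-Cytb against untreated cells were small. mt-Nd2 had a log2 fold change of -0.51 (adjusted p = 0.00124) and mt-Nd4 of -0.50 (adjusted p = 0.0136). The adjusted p of mt-Cytb was 0.0705 and 0.0882 without untreated replicate 1 and piericidin replicate 2, that of mt-Nd4 0.0516, 0.0614 and 0.161 without untreated replicate 1, untreated replicate 3 and piericidin replicate 2, and by DESeq2 they were 0.125 and 0.228. Without 1 library, 1 to 4 mRNAs were called lower than untreated (1 without untreated replicate 1 or piericidin replicate 2), while 6 or 7 were higher than with antimycin A and 6 higher than with 3-NPA.

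The 2 ribosomal RNAs of mitochondrial DNA had the opposite order. mt-Rnr1, the small ribosomal RNA, was at 903, 666 and 739.7 CPM untreated, 1039, 706 and 746 CPM with piericidin, 3238, 4133 and 3243 CPM with 3-NPA and 3367, 3365 and 3816 CPM with antimycin A. Piericidin and untreated libraries overlapped (log2 fold change 0.11, adjusted p = 0.573), and the piericidin level was lower than with antimycin A by a log2 difference of -2.08 ± 0.11 (SE, adjusted p = 1.19e-17) and than with 3-NPA by -2.09 ± 0.11 (SE, adjusted p = 2.68e-17). mt-Rnr2, the large ribosomal RNA, was at 1448, 1108 and 1334 CPM with piericidin, 3939.7, 4788 and 3840.4 CPM with 3-NPA and 3245, 3049.6 and 3518 CPM with antimycin A (-1.33 against antimycin A and -1.69 against 3-NPA). Against untreated cells at 1775, 1392 and 1717 CPM it had a log2 fold change of -0.33 (adjusted p = 0.0114), although 1 piericidin library lay above the lowest untreated one, and the adjusted p was 0.0933, 0.0729 and 0.140 without untreated replicate 1, untreated replicate 3 and piericidin replicate 2. The libraries were made from poly(A)-selected RNA, per the labels' protocols, so these values cover only the ribosomal RNA that was captured. Reads shared with near-identical nuclear copies of mitochondrial DNA are uncertain. Of 27 nuclear genes for expression of mitochondrial DNA, 2 fell with piericidin and 0 rose against untreated cells, a share near that of all tested genes (7.93% lower). These were Tbrg4 and Elac2, which process mitochondrial RNA (log2 fold change -0.57, adjusted p = 0.00483 and -0.60, adjusted p = 0.00862). For Tbrg4 the adjusted p was 0.0579 without piericidin replicate 2.

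**Figure D4:**
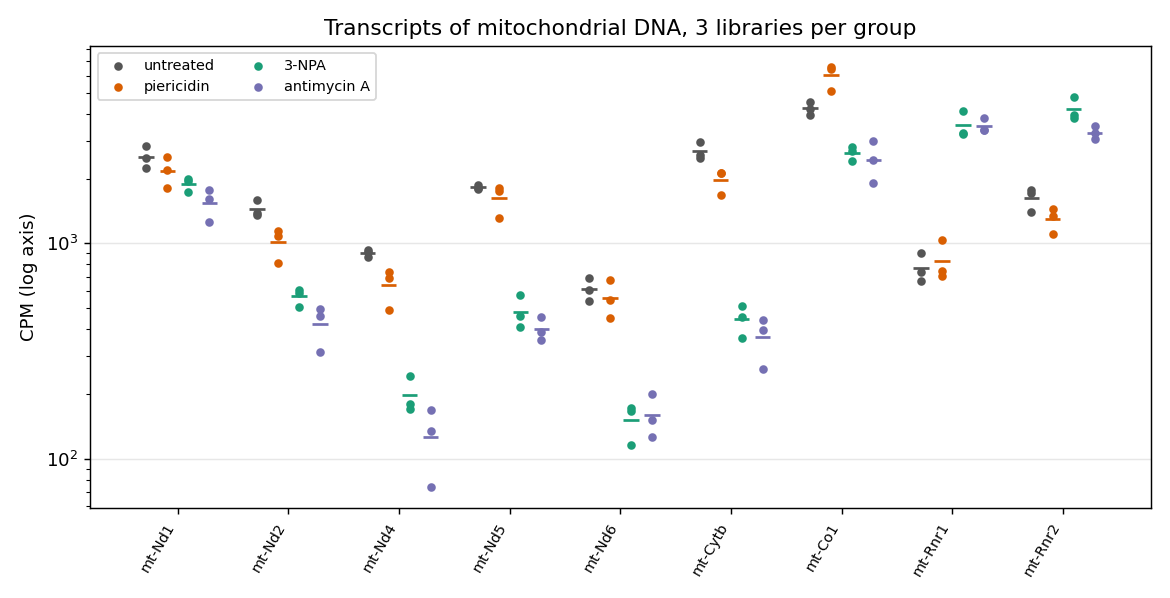
CPM on a log axis of 7 mRNAs and 2 ribosomal RNAs of mitochondrial DNA in untreated, piericidin, 3-NPA and antimycin A libraries, each library a point and the group mean a dash. For mt-Cytb, mt-Nd4, mt-Nd5 and mt-Nd6 piericidin lies near the untreated libraries and far above the other inhibitors, and for mt-Rnr1 and mt-Rnr2 it lies far below them.

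Some genes of the amino acid stress response rose with piericidin. Of 23 tested targets or members of the ATF4 pathway 9 rose and 0 fell, against 5.62% of all tested genes that rose (median 0.31). Asns, asparagine synthetase (chromosome 6, 7675169 to 7693254, mm10), was at 21.4, 24.01 and 19.96 CPM untreated and 56.3, 43.5 and 60.4 CPM with piericidin. The groups were far apart (log2 fold change 1.29 ± 0.22 SE, adjusted p = 5.31e-05). Gpt2, the mitochondrial alanine transaminase, went from 7.77, 6.44 and 2.06 CPM to 25.4, 22.5 and 27.4 CPM (log2 fold change 2.19 ± 0.40 SE, adjusted p = 1.62e-04). Slc3a2, the heavy chain of amino acid transporters, went from 168, 144 and 179.6 CPM to 192, 206 and 226 CPM (log2 fold change 0.35, adjusted p = 0.0195). Slc6a9, a glycine transporter, was at 3.56, 0.878 and 0.688 CPM and 2.21, 11.6 and 13.1 CPM, where piericidin replicate 1 lay within the untreated range (log2 fold change 2.38, adjusted p = 0.0232).

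The other 5 called genes, chosen for naming after their values were seen, were Slc1a4 and Slc38a2, neutral amino acid transporters, Chac1, which breaks down glutathione, Trib3, a feedback inhibitor, and Eif4ebp1, which restrains translation. Slc1a4 went from 10.03, 4.68 and 6.54 CPM to 19.1, 15.2 and 27.1 CPM and Chac1 from 0, 1.46 and 1.38 CPM to 2.58, 3.98 and 10.1 CPM, both without overlap. The 5 had log2 fold changes of 1.54 for Slc1a4, 0.31 for Slc38a2, 2.51 for Chac1, 1.02 for Trib3 and 0.73 for Eif4ebp1 (adjusted p = 0.0235, 0.0395, 0.0428, 0.0303 and 0.0354). Atf4 mRNA itself was at 209, 201 and 226 CPM untreated and 206, 226 and 244 CPM with piericidin (log2 fold change 0.09, adjusted p = 0.630). The count of 9 rises became 3 without untreated replicate 2 or 3, 4 without piericidin replicate 2 and 2 without piericidin replicate 3, and 1 member was called lower without piericidin replicate 3. Asns and Gpt2 kept an adjusted p under 0.05 without each of the 6 libraries, while that of Slc3a2 was 0.134, 0.0504 and 0.127 without untreated replicate 2, piericidin replicate 2 and piericidin replicate 3 and that of Slc6a9 0.0985, 0.116, 0.102 and 0.159 without untreated replicate 2, untreated replicate 3, piericidin replicate 2 and piericidin replicate 3. Each of the other 5 lost its call without 3 to 5 of the 6 libraries, piericidin replicate 3 always among them, where the adjusted p was 0.153 for Slc1a4, 0.424 for Slc38a2, 0.344 for Chac1, 0.255 for Trib3 and 0.127 for Eif4ebp1. Other settings also ended calls: the adjusted p was 0.0514 for both Slc38a2 and Trib3 in a fit of only the 2 groups compared, 0.0562 for Slc38a2 and 0.0645 for Chac1 with at least 1 CPM in 3 libraries, 0.0527 for Chac1 and 0.0674 for Eif4ebp1 without a filter, and 0.0576 for Chac1 with the replicate number as a block.

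The C/EBP-ATF composite site, TGATGNAA, is bound by ATF4, the factor of the integrated stress response, and 2 start regions that carry it are printed here, with the match on either strand in capitals (RefSeq, GRCm38.p6). It occurs in 9 of the 33 windows found for 25 of the 29 ATF4 list genes (27.3%), against 3.97% of all windows. That share covers the whole list and not only the genes that rose. Of the called genes, Asns, Chac1, Trib3 and Slc1a4 have a match, while Gpt2, Slc3a2, Slc6a9 and Slc38a2 have none and Eif4ebp1 had no window. Matches also lie at Atf3 and Jdp2, which were not called, and at Slc7a11, Nupr1 and Vldlr, which were not tested. Asns (chr6:7693210-7693359, minus strand) and Chac1 (chr2:119350992-119351141, plus strand) each have 1 in the stretch shown, starting 23 and 193 bases before the start site.
Asns: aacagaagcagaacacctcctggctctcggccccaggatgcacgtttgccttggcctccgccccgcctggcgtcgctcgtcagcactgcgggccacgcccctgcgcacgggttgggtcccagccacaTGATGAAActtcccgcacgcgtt
Chac1: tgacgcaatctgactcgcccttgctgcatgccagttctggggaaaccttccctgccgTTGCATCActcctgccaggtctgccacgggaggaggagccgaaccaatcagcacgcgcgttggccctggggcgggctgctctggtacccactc
No match to the CHR or E2F letters overlaps these.

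The same list was set against the other inhibitors. Of its 23 genes 7 were higher with piericidin than with 3-NPA (1.87% of all genes), with a median of 0.41, among them Asns (log2 difference 1.13 ± 0.22 SE, adjusted p = 0.00115), Slc1a4 (log2 difference 2.69 ± 0.52 SE, adjusted p = 0.00117) and Atf4 (log2 difference 0.48 ± 0.10 SE, adjusted p = 0.00425). For Atf4 that adjusted p was 0.0533 and 0.0658 without piericidin replicate 3 and 3-NPA replicate 1. That count became 2 without piericidin replicate 3 and 4 without 3-NPA replicate 3. Against antimycin A 0 were higher and 1 lower (0 to 2 without 1 library), with a median of 0.04, and Asns differed by 0.30 (adjusted p = 0.686). Of 20 aminoacyl-tRNA synthetases, known as another group of genes induced by ATF4, 5 fell and 0 rose against untreated cells (median -0.24), led by Vars, the valyl enzyme (log2 fold change -0.40, adjusted p = 9.40e-04), and Kars, the lysyl enzyme (log2 fold change -0.49, adjusted p = 0.00112). The number of falls was 9 without untreated replicate 2 and 3 without untreated replicate 3, and 1 was called higher without piericidin replicate 3. In that comparison 7.93% of all tested genes fell and 5.62% rose. Against 3-NPA 5 of the 20 synthetases were higher with piericidin and 0 lower (median 0.08), against 1.87% of all genes that were higher. That number was 2 without piericidin replicate 1 or 3 or 3-NPA replicate 3 and 3 without 3-NPA replicate 2, and 1 was called lower without piericidin replicate 1. Against antimycin A 0 were called (median 0.10).

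Some genes of serine, one-carbon and proline metabolism fell. Of 16 tested genes 6 fell and 1 rose (median -0.28), against 7.93% lower and 5.62% higher among all tested genes. The share of rises is near that of all tested genes. The gene that rose was Pycr1, which makes proline from its precursor with NADH or NADPH, at 2.27, 0.293 and 0.344 CPM untreated and 11.04, 5.43 and 8.84 CPM with piericidin (log2 fold change 3.08 ± 0.82 SE, adjusted p = 0.00832). Its adjusted p was 0.0601 and 0.0650 without untreated replicate 2 and untreated replicate 3. The falls included Tyms (above), Shmt1, the cytosolic serine hydroxymethyltransferase (log2 fold change -0.84, adjusted p = 3.03e-04), and Phgdh, the first enzyme of serine synthesis (log2 fold change -0.49, adjusted p = 0.00204).

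Some hypoxia-linked genes rose. Of 14 tested targets of hypoxia-inducible factor 5 rose and 0 fell, against 5.62% higher among all tested genes, and 13 of 14 had a positive fold change (median 0.44). Pdk1, which blocks the entry of pyruvate into the tricarboxylic acid cycle, was at 55.7, 72.02 and 62.3 CPM untreated and 108, 97.1 and 95.5 CPM with piericidin, with no overlap (log2 fold change 0.66 ± 0.14 SE, adjusted p = 0.00103). Bnip3, a receptor for mitophagy, went from 6.80, 5.86 and 4.82 CPM to 14.3, 22.5 and 16.8 CPM (log2 fold change 1.61 ± 0.40 SE, adjusted p = 0.00427). Kdm3a, an oxygen-dependent histone demethylase, and Mxi1, an antagonist of Myc, had log2 fold changes of 0.51 (adjusted p = 0.00552) and 0.77 (adjusted p = 0.00661). Mxi1 had an adjusted p of 0.0694 and 0.0671 without untreated replicate 1 and piericidin replicate 3. The list count was 4 to 6 without 1 library, and 0 passed the 1.5-fold minimum.

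Glycolysis did not move as a block. Of 22 genes 2 rose and 5 fell with a positive median of 0.17, against 5.62% higher and 7.93% lower among all tested genes. Aldoa, aldolase A, was at 574, 551 and 567 CPM untreated and 761, 718 and 679 CPM with piericidin (log2 fold change 0.35 ± 0.08 SE, adjusted p = 0.00158), and Slc16a3, the lactate exporter MCT4, went from 33.01, 30.2 and 37.8 CPM to 57.4, 63.4 and 59.8 CPM (log2 fold change 0.84 ± 0.19 SE, adjusted p = 0.00180). Ldha, which turns pyruvate into lactate and regenerates NAD+, fell from 1159.6, 1021 and 1114 CPM to 928, 798 and 739.9 CPM (log2 fold change -0.42 ± 0.09 SE, adjusted p = 6.12e-04). Slc16a1, the transporter MCT1, had a log2 fold change of -0.48 (adjusted p = 0.0122), with an adjusted p of 0.0633, 0.0734 and 0.0785 without untreated replicate 3, piericidin replicate 2 and piericidin replicate 3. The 2 rises were 4 without piericidin replicate 3, and the 5 falls were 3 without untreated replicate 1 or 2 and 1 without untreated replicate 3 or piericidin replicate 2 or 3. Against antimycin A, 8 of the 22 genes were higher with piericidin (0.299% of all genes), and 0 lower (median 0.32). Ldha was at 632, 614 and 589 CPM with antimycin A (log2 difference 0.43, adjusted p = 0.00482, and 0.0919 without piericidin replicate 1) and Aldoa at 562, 558 and 515 CPM (log2 difference 0.40, adjusted p = 0.00327). That count became 3 without piericidin replicate 1 and 4 without antimycin A replicate 3.

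Genes linked to the sensing of glucose metabolites gave opposite changes. Txnip, which restrains glucose uptake and answers to the MondoA factor, was at 218, 268 and 223 CPM untreated and 137, 132 and 139.7 CPM with piericidin (log2 fold change -0.80 ± 0.11 SE, adjusted p = 3.73e-06). It was lower than with antimycin A (log2 difference -0.61, adjusted p = 0.00140) and than with 3-NPA (log2 difference -1.26, adjusted p = 1.40e-10). Arrdc4, another target of that factor, fell from 13.3, 16.98 and 16.5 CPM to 5.89, 6.52 and 3.66 CPM (log2 fold change -1.55, adjusted p = 0.00898, and 0.0680 without piericidin replicate 3). Arrdc3, an arrestin-like relative, rose from 16.8, 20.5 and 15.1 CPM to 35.3, 43.8 and 35.7 CPM (log2 fold change 1.12 ± 0.25 SE, adjusted p = 0.00150), and it was at 12.3, 8.46 and 8.53 CPM with 3-NPA, where the difference was 1.97 ± 0.27 (SE, adjusted p = 4.45e-06). Txnip and Arrdc3 groups did not overlap in these comparisons. Against antimycin A 0 of the 7 tested genes of this list, Arrdc3 among them, were called higher with piericidin and 1, Txnip, lower. Of all tested genes 0.299% and 0.436% were. Over the 7 tested genes of this list 2 rose and 2 fell, with 1 rise and 1 fall without piericidin replicate 3 and 1 rise also without untreated replicate 1, untreated replicate 3 or piericidin replicate 2. The other rise was Mlxip, which encodes MondoA, with an adjusted p of up to 0.174 without 1 library. Among all tested genes 5.62% rose and 7.93% fell.

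In the tricarboxylic acid cycle 4 of 27 genes fell and 1 rose, Pdk1 (above). Among all tested genes 7.93% fell and 5.62% rose, which also applies to the other lists of this paragraph. Idh3a, a subunit of the NAD-dependent isocitrate dehydrogenase, went from 124, 105 and 134 CPM to 76.1, 90.6 and 72.6 CPM (log2 fold change -0.60 ± 0.14 SE, adjusted p = 0.00227). Mdh2 and Fh1, the mitochondrial malate dehydrogenase and fumarase, had log2 fold changes of -0.36 (adjusted p = 0.00847) and -0.56 (adjusted p = 0.0129). Their adjusted p values were 0.0583 without untreated replicate 1 for Mdh2 and 0.0534, 0.0855 and 0.117 without untreated replicate 1, untreated replicate 3 and piericidin replicate 1 for Fh1, and the count of 4 became 1 without untreated replicate 1 and 2 without untreated replicate 3 or piericidin replicate 1. Of 14 genes of NADH handling and its shuttles 3 fell and 0 rose, namely Ldha, Mdh2 and Got2, the mitochondrial aspartate transaminase (log2 fold change -0.66, adjusted p = 7.17e-04). Of 7 pentose phosphate genes 1 fell, Tkt, transketolase (log2 fold change -0.40, adjusted p = 0.00121), and that count was 2 without piericidin replicate 1.

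Lipid synthesis genes were lower in part. Of 19 fatty acid genes 6 fell and 0 rose (median -0.16). For this list and the next, the shares of all tested genes are 7.93% lower and 5.62% higher. Scd2, a stearoyl-CoA desaturase that uses oxygen and electrons from NADH, was at 301, 249 and 247 CPM untreated and 131, 121 and 116 CPM with piericidin (log2 fold change -1.12 ± 0.12 SE, adjusted p = 2.09e-08). It was also lower than with 3-NPA at 357, 264 and 265 CPM (log2 difference -1.27 ± 0.12 SE, adjusted p = 5.08e-10). Fasn, fatty acid synthase, had a log2 fold change of -0.47 (adjusted p = 2.21e-04). The list count was 2 without untreated replicate 1 and 3 without piericidin replicate 1 or 3. Of 23 cholesterol synthesis genes 6 fell and 1 rose (median -0.35), with Cyp51, an enzyme late in the route, among the falls (log2 fold change -0.41, adjusted p = 0.00390), 3 falls without piericidin replicate 3 and 0 rises without untreated replicate 2, piericidin replicate 1 or piericidin replicate 2.

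Some antioxidant targets of NRF2 were called, in both directions. Of 19 genes 3 fell and 2 rose, against 7.93% lower and 5.62% higher among all tested genes. Gpx1, a glutathione peroxidase, fell from 188, 154 and 172 CPM to 123, 105 and 128 CPM (log2 fold change -0.53 ± 0.12 SE, adjusted p = 0.00145). Nqo1, a quinone reductase that oxidizes NADH or NADPH, rose from 7.44, 2.93 and 1.03 CPM to 13.6, 13.04 and 16.8 CPM (log2 fold change 1.92 ± 0.47 SE, adjusted p = 0.00414). Prdx1, a peroxiredoxin, had a log2 fold change of -0.43 (adjusted p = 0.00746), with an adjusted p of 0.0936 without piericidin replicate 3. The falls were 1 without piericidin replicate 3, and the rises 1 without any one of the libraries other than untreated replicate 1.

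Targets of p53 set piericidin apart from the other inhibitors. Against untreated cells 2 of 17 rose and 3 fell (median 0.16), where 5.62% of all tested genes rose and 7.93% fell. But 9 were lower with piericidin than with antimycin A and 5 lower than with 3-NPA, with 0 higher in either, against 0.436% and 2.43% of all genes that were lower. Cdkn1a, the cyclin-dependent kinase inhibitor p21 (chromosome 17, 29090979 to 29100722, mm10), was at 20.7, 30.2 and 37.8 CPM untreated, 19.9, 14.5 and 18.9 CPM with piericidin, 95.5, 91.6 and 81.9 CPM with 3-NPA and 112, 81.2 and 80.5 CPM with antimycin A. The piericidin libraries were the lowest of the 4 groups. The log2 difference was -2.36 ± 0.20 (SE, adjusted p = 4.94e-11) against antimycin A and -2.33 ± 0.20 (SE, adjusted p = 7.79e-11) against 3-NPA. Against untreated cells it was -0.73 ± 0.22 (SE, adjusted p = 0.0183), a fall that narrowly separates the groups, with an adjusted p of 0.169 and 0.106 without untreated replicate 3 and piericidin replicate 2, and 0.0635 in a fit of only the 2 groups compared.

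Phlda3, which restrains AKT, was at 19.7, 17.3 and 25.5 CPM untreated, 8.09, 10.5 and 13.4 CPM with piericidin, 35.8, 35.3 and 32.1 CPM with 3-NPA and 62.9, 38.1 and 43.4 CPM with antimycin A. It differed by -2.15 ± 0.26 (SE, adjusted p = 2.28e-07) from antimycin A, -1.67 ± 0.26 (SE, adjusted p = 4.80e-05) from 3-NPA and -0.94 (adjusted p = 0.0129) from untreated cells, the last with 0.0871 and 0.0676 without untreated replicate 3 and piericidin replicate 1. Plk2, a stress-induced kinase, was at 12.9, 10.9 and 10.1 CPM with piericidin and 39.3, 31.4 and 33.00 CPM with antimycin A (log2 difference -1.62 ± 0.27 SE, adjusted p = 3.65e-04). Psrc1, a spindle protein outside the list, was at 5.89, 7.61 and 10.98 CPM with piericidin and 38.2, 27.6 and 35.97 CPM with antimycin A (log2 difference -2.03 ± 0.35 SE, adjusted p = 3.86e-04). Neither was called against untreated cells (log2 fold change -0.24, adjusted p = 0.667 and -0.12, adjusted p = 0.897). Bax, which permeabilizes the outer mitochondrial membrane, fell from 137, 121 and 149 CPM to 85.7, 94.2 and 100.3 CPM (log2 fold change -0.53 ± 0.12 SE, adjusted p = 0.00256) and was lower than with antimycin A (log2 difference -0.97, adjusted p = 1.17e-06) and 3-NPA (log2 difference -0.77, adjusted p = 9.18e-05). Trp53inp1 and Sesn1, the 2 that rose, had log2 fold changes of 0.41 (adjusted p = 9.78e-04) and 0.60 (adjusted p = 0.00923), and the adjusted p of Sesn1 was 0.0728 and 0.0571 without untreated replicate 1 and piericidin replicate 1. Without 1 library the count lower than antimycin A was 7 or 8 and that lower than 3-NPA 5 or 6. Against untreated cells it was 1 rise without untreated replicate 1 and 1 fall without untreated replicate 3.

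In the BCL2 family Bcl2l11, which encodes the death-promoting protein BIM, rose from 45.96, 47.4 and 55.4 CPM to 122, 91.3 and 126 CPM (log2 fold change 1.19 ± 0.15 SE, adjusted p = 4.13e-07). Bcl2, its survival-promoting partner, rose from 344, 379 and 345 CPM to 504, 480.0 and 476 CPM (log2 fold change 0.45 ± 0.08 SE, adjusted p = 1.68e-04). With Bax these were the 3 called members of 13, with 2 rises and 1 fall also without each of the 6 libraries in turn. Among all tested genes 5.62% rose and 7.93% fell, a share of falls near that of this list.

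**Figure D5:**
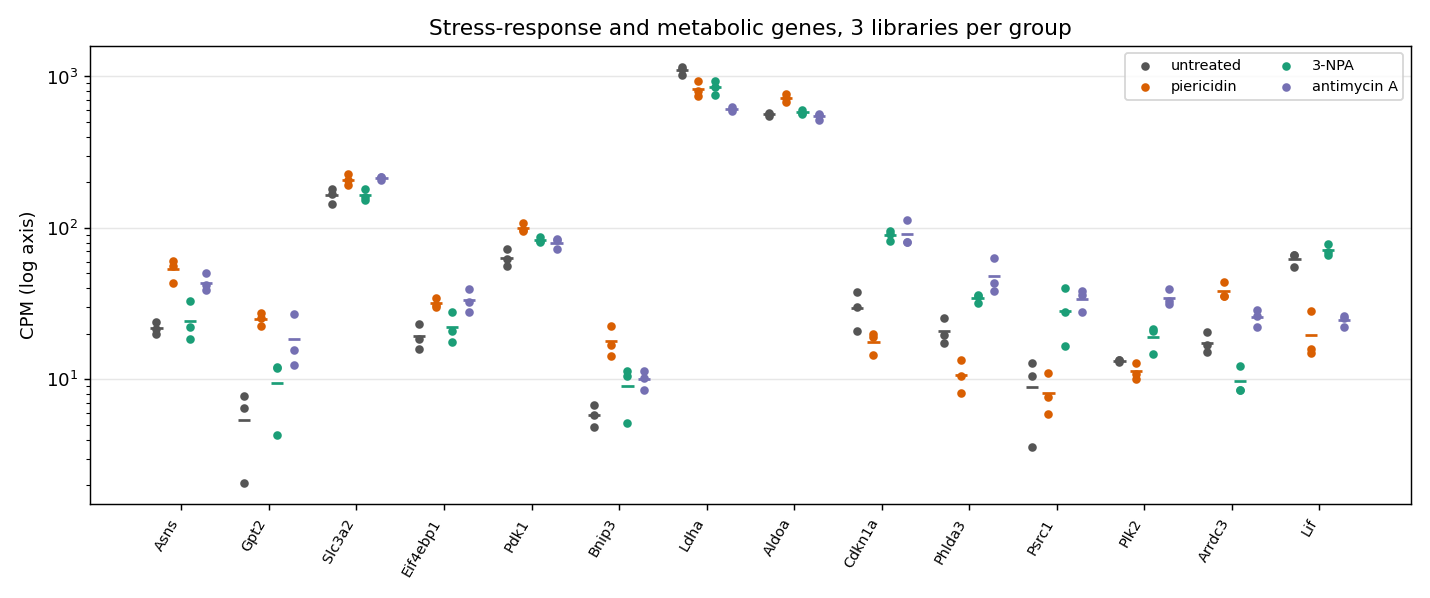
CPM on a log axis of 14 stress-response and metabolic genes in untreated, piericidin, 3-NPA and antimycin A libraries, each library a point and the group mean a dash. Cdkn1a and Phlda3 are lowest with piericidin, and Aldoa is highest with it. Arrdc3 is higher with piericidin than in untreated cells or with 3-NPA, and was not called higher than with antimycin A.

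Foxp3 itself was higher with piericidin. It (chromosome X, 7579676 to 7595243, mm10) was at 529, 571 and 549 CPM untreated and 739, 783 and 819.8 CPM with piericidin, with no overlap and a log2 fold change of 0.51 ± 0.09 (SE, adjusted p = 1.69e-04). With 3-NPA it was at 577, 616 and 609.5 CPM, lower than with piericidin (log2 difference 0.38, adjusted p = 0.0130, and 0.0792 and 0.0839 without piericidin replicate 3 and 3-NPA replicate 1). Against antimycin A neither Foxp3 nor any other gene of the Treg identity list was called higher, and the largest log2 difference there was 0.27. Exons of Foxp3 overlap those of other annotated genes, and the strand setting is not stated. Of the other identity genes that were to be named whatever their result, none here passed the test. Il2ra, the IL-2 receptor alpha chain CD25, was at 2976, 2829 and 2929.7 CPM and 2861, 2552 and 2720.3 CPM (log2 fold change -0.10, adjusted p = 0.393). Ctla4, an inhibitory receptor, was at 848, 893 and 905 CPM and 908, 924 and 964 CPM (log2 fold change 0.08, adjusted p = 0.579), and Ikzf2, the factor Helios, at 1179, 1139 and 1004 CPM and 1292, 1244 and 1199 CPM (log2 fold change 0.17, adjusted p = 0.140). The piericidin libraries of Ctla4 and Ikzf2 were all above the untreated ones, but by little.

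Of 22 Treg identity genes 2 rose and 5 fell (median -0.04), against 5.62% higher and 7.93% lower among all tested genes. Tnfrsf9, the costimulatory receptor 4-1BB, rose from 747, 826 and 887 CPM to 1584, 1857 and 1589.8 CPM (log2 fold change 1.03 ± 0.09 SE, adjusted p = 2.19e-10) and was higher than with 3-NPA at 930.1, 1048 and 934 CPM (log2 difference 0.79, adjusted p = 3.48e-08). Gpr83, a receptor typical of Treg cells, fell from 268, 256 and 289 CPM to 195, 129 and 147 CPM (log2 fold change -0.79 ± 0.13 SE, adjusted p = 2.50e-05). Izumo1r, the folate receptor 4, fell from 428, 437 and 441 CPM to 287, 334 and 275 CPM (log2 fold change -0.54 ± 0.09 SE, adjusted p = 4.70e-05). Socs2, a feedback inhibitor of cytokine signals, fell from 408, 446 and 429 CPM to 312, 254 and 283 CPM (log2 fold change -0.60, adjusted p = 1.72e-05). The count of falls was 4 or 5 without 1 library, and that of rises 2 or 3. Against antimycin A 0 of the 22 were called higher with piericidin and 2 lower, where 0.299% and 0.436% of all tested genes were. Those 2 became 0 or 1 without 1 library, and 1 gene was called higher by DESeq2 or without antimycin A replicate 3.

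Of 20 genes of suppressive function 5 rose and 2 fell (median 0.11), against the same 5.62% and 7.93%. Itgb8, an integrin chain that activates TGF-beta, rose from 88.4, 91.9 and 84.6 CPM to 188, 164 and 146 CPM (log2 fold change 0.91 ± 0.14 SE, adjusted p = 9.89e-06). Gzmb, the protease granzyme B, rose from 46.3, 20.2 and 36.8 CPM to 78.4, 61.2 and 78.4 CPM (log2 fold change 1.09 ± 0.21 SE, adjusted p = 3.24e-04). Pdcd1, the receptor PD-1, rose from 104, 186 and 156 CPM to 214, 319.9 and 252 CPM (log2 fold change 0.82 ± 0.16 SE, adjusted p = 5.14e-04), with replicate 2 the highest in both groups. Lgals1, galectin-1, had a log2 fold change of -0.42 (adjusted p = 0.0133), and its adjusted p was 0.0588, 0.0508 and 0.125 without untreated replicate 3, piericidin replicate 2 and piericidin replicate 3. The rises were 3 without piericidin replicate 3, and the falls 1 without untreated replicate 1 or 2 or piericidin replicate 1 or 3 and 0 without untreated replicate 3 or piericidin replicate 2. Il10, an inhibitory cytokine, was at 31.1, 34.3 and 40.9 CPM untreated and 34.9, 32.6 and 47.6 CPM with piericidin, which overlap (log2 fold change 0.12, adjusted p = 0.799). With 3-NPA it was at 12.96, 20.2 and 26.7 CPM, and piericidin was higher (log2 difference 0.94, adjusted p = 0.0170, and 0.146 and 0.148 without piericidin replicate 3 and 3-NPA replicate 1). Set against antimycin A, 0 of the 20 genes of suppressive function were called higher with piericidin and 1 lower. Of all tested genes 0.299% were higher and 0.436% lower in that comparison. The 1 lower gene became 0 without piericidin replicate 1 or 2 or antimycin A replicate 2 or 3. By DESeq2 or without antimycin A replicate 3, 1 was called higher.

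Other T cell programmes changed in part, and their counts are to be read against 5.62% higher and 7.93% lower among all tested genes. Of 16 effector Treg factors 3 rose and 0 fell (median -0.07), with Rora, a nuclear receptor, the smallest in p (log2 fold change 0.54, adjusted p = 0.00363), 1 rise without piericidin replicate 3 and 1 fall without untreated replicate 1. Of 16 genes of resting T cells 4 rose and 1 fell (median 0.19). Il7r, the IL-7 receptor, rose from 90.6, 129 and 96.7 CPM to 171, 174 and 187 CPM (log2 fold change 0.74 ± 0.13 SE, adjusted p = 1.07e-04), and Klf2, a quiescence factor, had a log2 fold change of 0.48 (adjusted p = 6.57e-04). The 4 rises were 2 without untreated replicate 1. Of 25 immediate early and NR4A genes 5 rose and 2 fell, with Fosl2, an AP-1 factor, from 68.6, 78.5 and 79.1 CPM to 164, 163 and 205 CPM (log2 fold change 1.23 ± 0.13 SE, adjusted p = 1.75e-08) and Egr1, a zinc finger factor, at a log2 fold change of 0.85 (adjusted p = 3.68e-05), and 1 fall without untreated replicate 1. Of 20 T cell receptor signalling genes 5 rose and 3 fell, with Lat, the membrane adaptor (log2 fold change -0.37, adjusted p = 0.00558), among the falls and Ptprc, the phosphatase CD45 (log2 fold change 0.26, adjusted p = 0.00815), among the rises. Those rises were 3 without untreated replicate 1 or 3 and 1 without piericidin replicate 3, and the falls 1 without untreated replicate 1 or 3 or piericidin replicate 2.

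Of 14 members of the TNF receptor and costimulator list 3 rose and 1 fell. Ltb, lymphotoxin beta, fell from 388, 340.5 and 378 CPM to 267, 266 and 272 CPM (log2 fold change -0.46 ± 0.09 SE, adjusted p = 4.77e-04) and was lower than with antimycin A at 391, 398 and 422 CPM (log2 difference -0.59 ± 0.09 SE, adjusted p = 8.62e-05). Cd27, a costimulatory receptor, had a log2 fold change of 0.48 (adjusted p = 9.72e-04). Of 8 tested cytokine genes 2 fell and 0 rose, Ltb and Lta (log2 fold change -0.63, adjusted p = 0.00230). Lif, leukaemia inhibitory factor, which is on no list described here, was named for its difference from 3-NPA: it was at 66.7, 66.2 and 55.05 CPM untreated, 28.3, 14.9 and 15.9 CPM with piericidin and 69.2, 65.8 and 78.5 CPM with 3-NPA (log2 fold change -1.68 ± 0.21 SE, adjusted p = 4.13e-07 and -1.86 ± 0.21 SE, adjusted p = 5.30e-08). Of 25 interferon-stimulated genes 7 fell and 0 rose (median -0.10), led by Igtp, an immunity-related GTPase, from 357, 326 and 321 CPM to 259.7, 195 and 195 CPM (log2 fold change -0.63 ± 0.11 SE, adjusted p = 1.14e-04), and Gbp2, a guanylate-binding protein (log2 fold change -0.84, adjusted p = 1.72e-04), with 4 falls without piericidin replicate 3 and 1 rise without untreated replicate 2. Of 22 homing genes 1 rose and 2 fell, shares near the 5.62% and 7.93% of all tested genes. The rise was Cxcr4, a chemokine receptor (log2 fold change 0.75, adjusted p = 6.06e-04), and the falls included Ccr6, another chemokine receptor (log2 fold change -0.78, adjusted p = 0.00416). The rise count was 2 without piericidin replicate 2.

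Of 22 genes of 2-oxoglutarate-dependent demethylases, DNA methylation and related chromatin factors, 7 rose and 2 fell (median 0.18). Kdm5b, an H3K4 demethylase, rose from 61.8, 67.3 and 68.5 CPM to 105, 97.8 and 112 CPM (log2 fold change 0.67 ± 0.13 SE, adjusted p = 3.19e-04). Tet2, which oxidizes 5-methylcytosine, rose from 64.1, 74.9 and 51.95 CPM to 95.3, 125 and 93.6 CPM (log2 fold change 0.71 ± 0.15 SE, adjusted p = 0.00122). The falls were Uhrf1 (above) and Dnmt1, the maintenance DNA methyltransferase, from 412, 451 and 462 CPM to 260.4, 271 and 279 CPM (log2 fold change -0.71 ± 0.10 SE, adjusted p = 1.86e-06). The 7 rises were 4 without untreated replicate 1 or piericidin replicate 1 or 3 and 3 without untreated replicate 3, and the higher share of rises stands beside 5.62% of all tested genes. The share of falls in this list is near the 7.93% of all tested genes.

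The 12 largest rises at that level included several genes on none of these lists. Carns1, which makes carnosine, had the largest, from 32.7, 35.1 and 29.9 CPM to 81.3, 92.01 and 83.6 CPM (log2 fold change 1.39 ± 0.18 SE, adjusted p = 5.56e-07). Abcb1a, a drug efflux pump, rose from 15.9, 47.1 and 33.7 CPM to 67.7, 95.3 and 70.8 CPM (log2 fold change 1.26 ± 0.24 SE, adjusted p = 2.87e-04). Tiparp, a mono-ADP-ribosyltransferase induced by the aryl hydrocarbon receptor, rose from 20.1, 18.2 and 14.5 CPM to 37.2, 35.5 and 50.01 CPM (log2 fold change 1.22 ± 0.24 SE, adjusted p = 4.57e-04). Uckl1, a uridine-cytidine kinase, and Zfyve16, an endosomal protein, had log2 fold changes of 1.18 and 1.15 (adjusted p = 2.91e-05 and 9.99e-05). Filip1l, Plpp5, Zc3h6 and Scml4 completed the 12 with 1.16, 1.16, 1.18 and 1.14 (adjusted p = 1.31e-04, 0.00223, 0.00283 and 1.79e-04). Exons of Carns1, Uckl1 and Zc3h6 overlap those of another annotated gene on the same strand.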

How the data were processed

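RNA-seq was measured by the authors from poly(A)-selected RNA with NEBNext Ultra libraries, per the labels' protocols. The deposited table holds whole-number read counts per gene, made with bcl2fastq, TopHat, HTSeq and mm10, per the submitters' processing notes, which also name edgeR. Versions and the strand setting are not given in the sources used here. Columns were matched to samples by title, and 11 columns of the deposited tables that match no sample here were not used. The deposited table names genes by Ensembl ID, and 42462 of its 43430 IDs matched a symbol in a table of mouse gene names. Gene models are from GENCODE M21 on mm10.

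Genes were filtered with filterByExpr, libraries scaled by TMM, and the 12 in vitro libraries (4 groups of 3) fitted together in edgeR 4.0.16 (R 4.3.3) without covariates. Quasi-likelihood F tests gave piericidin against untreated, antimycin A and 3-NPA, with Benjamini-Hochberg adjustment over all 11689 tested genes and a threshold of 0.05. The standard error of a log2 fold change was its size divided by the square root of F, and fold changes used a prior count of 0.125. CPM use the TMM-scaled library sizes. The 6 libraries of the main comparison held 2738238 to 3424327 counts, and the biological coefficient of variation was 14.7%. No pair of libraries was identical.

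The genes and gene lists were chosen with earlier results of these data known. Named genes are 6 preset ones (Foxp3, Il2ra, Ctla4, Ikzf2, Il10, Uqcrfs1), the 12 largest rises and 12 largest falls that passed the test, reached 4 in mean log2 CPM and did not overlap (passing over predicted genes, pseudogenes and receptor segments), for each list the called members of smallest p, at most 4 (or 2 uncalled ones where none was called), and the 5 called genes with the largest difference each way from antimycin A and from 3-NPA. Atf4, Mcm6, Pycr1, mt-Nd1, Ighm and genes said to be so were named after their values were seen, and 4 genes are not reported here. Of 185 genes chosen by this rule and found in the annotation, 68 have exons that overlap another gene, so some reads may be ambiguous there, among them Foxp3, Ccna2, Cdc20, Ube2c, Mcm7, Lig1, Paics, Hspd1, Ndufb8, Aldoa, Carns1, Uckl1 and Zc3h6.

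Motifs were searched on both strands of all 32851 RefSeq windows of 27025 genes. Alternatives were DESeq2 1.42.0, RLE size factors, no filter, at least 1 CPM in 3 libraries, a 1.5-fold minimum (glmTreat), the replicate number as a block, a fit of only the 2 groups compared, and each library left out in turn. The procedure was tested on simulated data.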

Additional observations from a re-analysis of the deposited data

How the results depend on the processing

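Against untreated cells the numbers called by DESeq2, RLE size factors, no filter, 1 CPM in 3 libraries and a fit of only the 2 groups ranged from 1449 to 2024 around 1584. A 1.5-fold minimum left 82 (9 higher, 73 lower), by construction. Leaving out 1 library gave 1009 to 1421 called, 380 to 579 higher and 613 to 845 lower. Against antimycin A DESeq2 called 202 (89 higher, 113 lower) where edgeR called 86, the 1.5-fold minimum left 20 (7 and 13), and leaving out 1 library gave 43 to 75, with 14 to 34 higher and 29 to 41 lower. Against 3-NPA DESeq2 called 815 (377 higher, 438 lower) where edgeR called 502, the 1.5-fold minimum left 23 (9 and 14), and leaving out 1 library gave 230 to 409, with 94 to 161 higher and 128 to 251 lower. The cause of the DESeq2 differences was not tested, and fewer libraries were fitted where 1 was left out.

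The replicate numbers in the labels are not said to pair samples, and the correlation of same-numbered deviations from the group means was 0.004 to 0.09 over all pairs of groups. Averaged over the other groups, all 12 libraries correlated best with their own number, a hint from the data and not from the design. Not every single pair did so: untreated replicate 3 correlated at 0.014 with piericidin replicate 2 and at 0.004 with piericidin replicate 3. With the replicate block 1733 genes were called against untreated cells (736 higher, 997 lower), 105 against antimycin A and 624 against 3-NPA. The mitosis genes lower than with 3-NPA were 17 in place of 11, and of the called genes named by rule none lost its call against untreated cells. Chac1, named after its values were seen, did (adjusted p = 0.0576).

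Of 159 named genes called against untreated cells, 116 kept their call without each of the 6 libraries and 43 lost it without 1 or more. The sign of 4 uncalled genes changed when 1 library was left out, over a log2 fold change of -0.064 to 0.23 for Il10, -0.61 to 0.12 for Uqcrfs1, -0.086 to 0.24 for mt-Rnr1 and -0.49 to 0.20 for Psrc1. Under the 7 other settings all 4 kept their sign. Genes of a few CPM, such as Slc6a9, Pycr1 and Chac1, rest on few counts at this depth.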

Other observations

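Lists not described above also held called genes, and their counts are to be read against 5.62% higher and 7.93% lower among all tested genes. Of 22 tested lysosome and autophagy genes 4 rose and 1 fell (median 0.13), with Flcn, folliculin, a regulator of lysosomal growth signalling, at 0.52 ± 0.17 (SE, adjusted p = 0.0296). Flcn had an adjusted p of 0.141, 0.0616, 0.0611 and 0.165 without untreated replicate 2, untreated replicate 3, piericidin replicate 2 and piericidin replicate 3, and the rises were 2 without untreated replicate 1, 1 without untreated replicate 2 or 3 or piericidin replicate 3 and 0 without piericidin replicate 2. Of 16 genes of the IL-2 and STAT5 list 3 rose and 2 fell, Bcl2 and Gzmb among the rises and Socs2 among the falls, with 1 fall without untreated replicate 1 or 3 or piericidin replicate 1 or 2. Of 12 helper cell regulators 3 rose and 1 fell, and the falls were 2 without piericidin replicate 1 and 0 without piericidin replicate 3. Stat3, a transcription factor of cytokine signals, went from 438, 412 and 417 CPM to 519.8, 538 and 515 CPM (log2 fold change 0.31 ± 0.08 SE, adjusted p = 0.00552). Of 21 replication-linked histone genes 2 were tested and 0 called.

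Cyp1a1, a cytochrome P450 known as a target of the aryl hydrocarbon receptor, was chosen after its values were seen. It was at 15.2, 8.20 and 15.8 CPM untreated, 38.3, 23.2 and 21.7 CPM with piericidin, 11.3, 7.36 and 12.8 CPM with 3-NPA and 17.5, 6.99 and 18.5 CPM with antimycin A. The log2 fold change against untreated cells was 1.08 ± 0.34 (SE, adjusted p = 0.0278) and the log2 difference from 3-NPA 1.39 ± 0.35 (SE, adjusted p = 0.0157), by edgeR's quasi-likelihood test. The adjusted p against untreated cells was 0.147 and 0.198 without untreated replicate 2 and piericidin replicate 1, and that against 3-NPA 0.119, 0.0525 and 0.0732 without piericidin replicate 1, 3-NPA replicate 1 and 3-NPA replicate 2. Ahrr, the repressor of that receptor, was at 1.94, 2.34 and 3.78 CPM untreated and 4.78, 6.16 and 6.10 CPM with piericidin and was not called (log2 fold change 1.08, adjusted p = 0.217).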
